A study of Penicillium oxalicum with 114 samples.

Results

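POX06835 and POX03641 are 2 of the 9863 gene IDs in the count tables of a transcriptome series on Penicillium oxalicum, a filamentous fungus known for the plant-degrading enzymes it releases. Both belong to a list of 9 cellulase genes. They were selected on measured values: in earlier results on these libraries they answered wheat bran over glucose more weakly than the rest of that list, and POX06835 was not lowered when clrB was lost. The values in those 2 contrasts chose the genes, so they are described below without a test. The sources used here pair neither ID with a product name, so no enzyme activity is assigned to either. The deposited coding lengths are 2586 bases for POX06835 and 2523 bases for POX03641, or 861 and 840 codons without the stop.

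Fungal cellulases act as a set: endoglucanases cut inside cellulose chains, cellobiohydrolases release cellobiose from chain ends, and beta-glucosidases split cellobiose to glucose. In filamentous fungi such genes are typically low while glucose is at hand and are raised when cellulose or its breakdown products are met. ClrB is a transcription factor known in Penicillium and Aspergillus as an activator of cellulase genes.

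The libraries of mycelium fall into 33 groups. The wild type HP7-1 was grown for 72 h without transfer on wheat bran, wheat bran plus rice straw and wheat bran plus bagasse (n = 1 each) or on glucose (n = 3). All other strains are mutants. Their control is Ku70, a strain without the KU70 gene, and the labels do not say whether the other mutants also lack it or whether a mutant is more than 1 clone. Strains named dClrB, dPOX01167, dPOX02968, dPOX04420 and dPOX07277 each lack the gene in the name, and OES1167 overexpresses POX01167 under that gene's own promoter. After growth on glucose, hyphae were moved to Avicel, a microcrystalline cellulose (AV), or to wheat bran plus Avicel (WA). On AV there are dClrB libraries at 12, 24 and 36 h and dPOX01167 and Ku70 libraries at 12 and 36 h. On WA all these strains were taken at 12, 24 and 36 h (n = 3 each), although Ku70 library 30 of the 12 h group is labelled 13 h. An inducing carbon source, 2% Avicel per the labels' protocols, was used for 24 h with OES1167, dPOX02968, dPOX04420 and dClrB (n = 3 each) and with Ku70 (n = 24). It was also used for 72 h without transfer with dPOX01167 and dClrB (n = 3 each). Avicel supplemented with 1 of 3 lipids, namely oleic acid, linolenic acid or an arachidonic acid oil, was given for 24 h to dPOX07277 and Ku70 (n = 3 each). The labels name replicates only by letter or number, so p-values measure the spread between these libraries, which may be technical.

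The tables are of 3 kinds by the rows they list, and the kinds also differ in depth. Time-course tables hold IDs that do not start with POX, deep tables list genes with a count of 0, and shallow tables do neither. There are 30 shallow libraries with totals of 365937 to 4242956 counts, 48 time-course libraries (AV and WA) with 5368155 to 8267079 and 36 deep libraries with 13277742 to 14731797. Both genes were above 0 in every library, so depth did not limit their detection. Labels and counts are at odds in places that touch the results. The growth protocol given for dPOX02968 names Ku70, and that for dPOX01167 at 72 h names HP7-1, while their strain labels and descriptions name the mutants, which were followed here. The dPOX07277 descriptions name that deletion mutant and also term it a control. In Ku70 libraries 8, 9 and 10 on the inducing carbon source, the other 7 cellulase genes summed to 13.6 to 33 CPM, counts-per-million of the library total, against 12240 to 97300 CPM in the other 21 libraries. In the AV libraries labelled dPOX01167 the deleted gene was present, at 1603, 25.3 and 0 CPM at 12 h and at 95.6, 207 and 153 CPM at 36 h, against at most 0.84 CPM in the dPOX01167 libraries on WA and 0 in those at 72 h. They are called the libraries labelled dPOX01167 throughout. The counts of the other deleted genes were not checked in this way, so those strains rest on their labels.

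POX06835 shares reads with POX06834, the ID before it in the numbering. Its estimated count was not whole in 41 of the 48 time-course libraries, and in all 41 the sum with the count of POX06834 was whole within 0.015. POX06834 took 5.62% to 76.2% of that sum in the time course, so how the shared reads were split bears on POX06835 there. Its share was 0.242% to 75.6% in the other 66 libraries, where all POX06834 counts were whole. The share thus also follows the level of POX06834 itself and does not measure how many reads were shared. All POX03641 counts were whole.

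Both genes ranged widely over the groups, and in different orders. POX06835 spanned 7.23 to 1473 CPM over the libraries with a median of 284 CPM, and the highest group mean was 153-fold above the lowest. POX03641 spanned 17.2 to 3018 CPM with a median of 529 CPM, and a 95.2-fold range of group means. In the order of group means, the ranges of 26 of 32 neighbouring pairs overlapped for POX06835 and of 25 of 32 for POX03641, so most adjacent ranks could not be told apart.

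The top of the POX06835 order was dClrB at 72 h without transfer, with 1432, 1319 and 1473 CPM. It stood apart from the single HP7-1 library on wheat bran plus rice straw at 1039 CPM, which in turn stood above the dPOX07277 groups. Those averaged 804 ± 156 CPM on linolenic acid, 746 ± 214 CPM on oleic acid and 667 ± 39 CPM on arachidonic acid oil (SD, n = 3 each). The oleic acid range overlapped both others, and the linolenic acid libraries lay just above those on arachidonic acid oil, at 689.9 CPM and over against at most 689.7 CPM. The bottom of the order held every WA group at 12 h and dPOX01167 at 72 h. Their means were 9.23 CPM in dClrB on WA, 12.3 CPM in Ku70 on WA, 15.9 CPM in dPOX01167 at 72 h and 18.2 CPM in dPOX01167 on WA. The next group mean above these was 125.5 CPM.

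For POX03641 the top was Ku70 with arachidonic acid oil, at 1457, 2237 and 3018 CPM. Ku70 with oleic acid followed at 1331 ± 137 CPM (n = 3) and Ku70 on the inducing carbon source at 1325 ± 769 CPM (n = 24). The low end was a block of dClrB groups: all 8 averaged between 35.3 and 80.2 CPM, whatever the medium or time. Below them stood only the AV group labelled dPOX01167 at 36 h, with 30.8, 17.2 and 22.5 CPM. HP7-1 on glucose, at 86.7 ± 15.5 CPM (n = 3), ranked next above that block with dClrB at 72 h overlapping it.

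**Figure D1:**
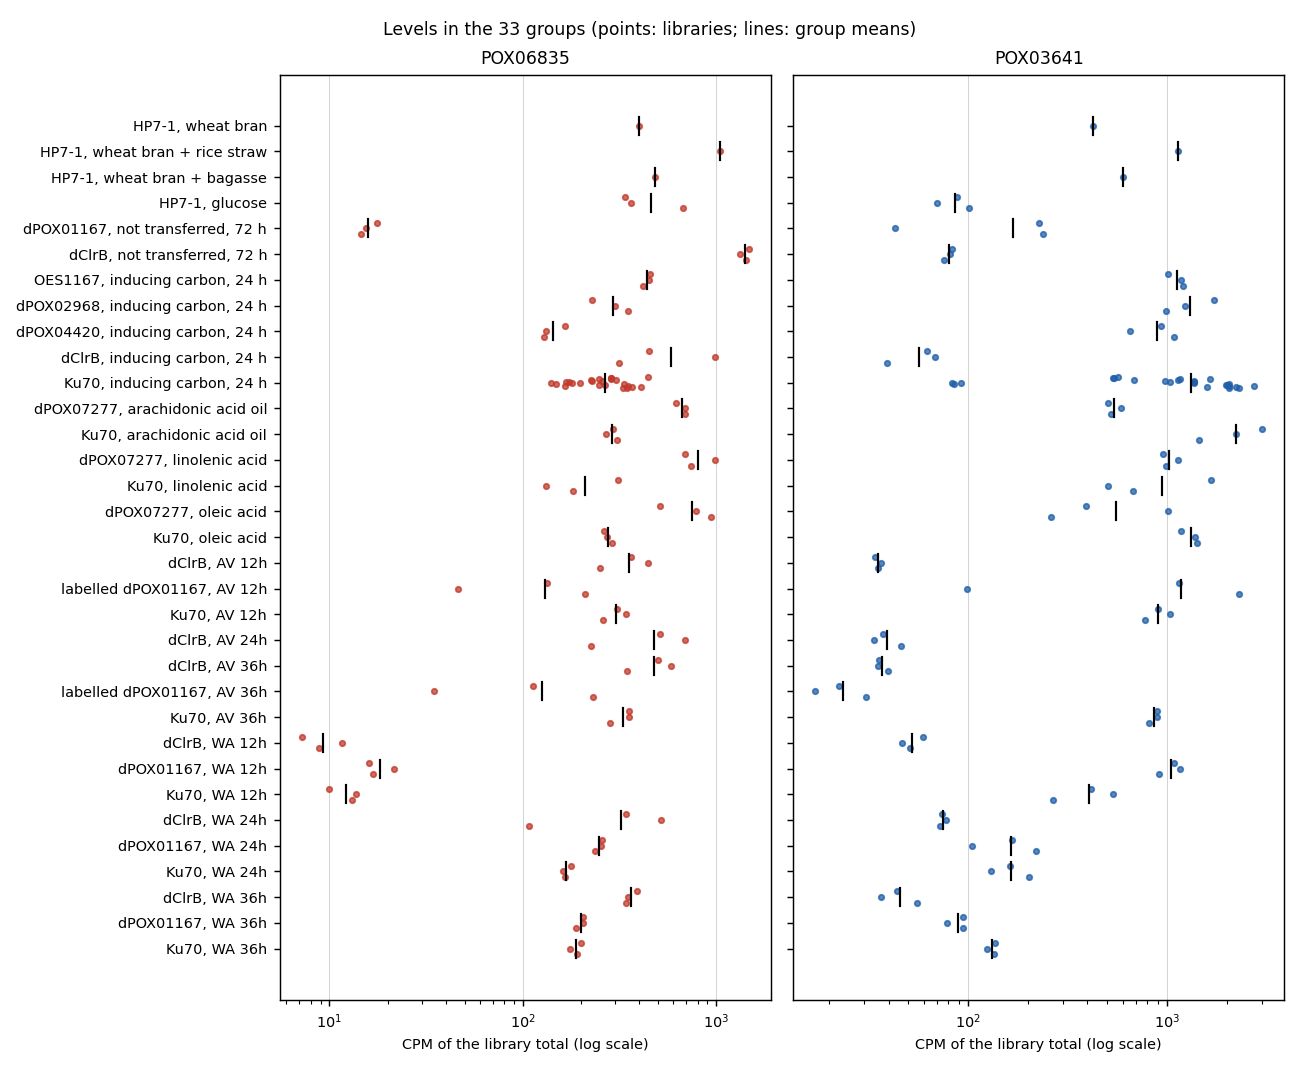
CPM of POX06835 (left panel) and POX03641 (right panel) on log axes in the 33 groups, with 1 point per library and a black line at each group mean. POX06835 is lowest in the 12 h WA groups and in dPOX01167 at 72 h and highest in dClrB at 72 h (1408 CPM), where POX03641 is at 80.2 CPM.

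Per length, neither gene was the higher one throughout. By FPKM as deposited by the authors, which scales counts by gene length and library depth, POX06835 was above POX03641 in every library of 12 groups, below it in every library of 18 and mixed in 3. The log2 ratio of POX06835 to POX03641 in FPKM was 4.10 ± 0.11 in dClrB at 72 h and -6.19 ± 0.15 in dPOX01167 on WA at 12 h (SD, n = 3 each). As a share of the summed CPM of the 9 cellulase genes, POX06835 made up 82.7 ± 3.10% in dClrB on WA at 36 h, against 33.5 ± 0.77% in Ku70 in the same medium and time (SD, n = 3 each). On AV at 36 h its share was 67.5 ± 5.97% in dClrB and 2.73 ± 0.09% in Ku70. POX03641 instead made up most of the sum on WA at 12 h in every strain, with 58.7 ± 5.56% in dClrB, 92.2 ± 0.66% in dPOX01167 and 84.4 ± 2.90% in Ku70. Such shares move with the other 7 genes as well as with the gene named.

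In HP7-1, POX06835 lay within its glucose range on 2 of the 3 wheat-bran media, and POX03641 lay above its glucose range on all 3. POX06835 had 397, 1039 and 482 CPM on wheat bran, wheat bran plus rice straw and wheat bran plus bagasse, against 675, 362 and 338 CPM on glucose. The rice straw library alone stood above the glucose libraries, and the groups overlapped. The log2 change was 0.15 (SE 0.44), and leaving out each glucose library in turn gave values between -0.002 and 0.51. For every gene in this contrast the 3 wheat-bran libraries were fitted as 1 group, although each is a different medium. The SE and the calls thus treat differences between media as spread between replicates. POX03641 had 425, 1135 and 602 CPM on those media, against 101, 70.3 and 88.6 CPM on glucose, with no overlap. Its log2 change was 2.71 (SE 0.43), a 6.53-fold higher level, so weak describes it only beside the rest of the list. The other 7 cellulase genes changed by 4.47 (POX01166) to 7.80 (POX07535) with a median of 5.45, against a median of 0.13 over 8526 genes. The pair was chosen for a weaker answer in this contrast than the rest of the list, so no call is given for these 7. The 4 xylanase genes were all called higher, where 11.5% of genes were called higher, and had a median of 6.65. On glucose POX06835 made up 64.3 ± 4.26% of the list's CPM and POX03641 12.9 ± 3.24% (SD, n = 3), against 5.79% to 8.34% and 7.16% to 9.11% on the wheat-bran media. In bulk mycelium, fewer cells that transcribe a gene and less RNA of it per cell cannot be told apart.

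Loss of clrB parted the 2 genes. POX03641 was lower in dClrB than in Ku70 in all 6 settings, without overlap. The POX06835 ranges of dClrB and Ku70 overlapped in 5 settings, and in the sixth dClrB lay above Ku70. On AV at 12 h POX03641 had 35.2, 36.6 and 34 CPM in dClrB, against 783, 1040 and 907 CPM in Ku70. At 36 h on AV it had 39.6, 35.4 and 35.7 CPM in dClrB, against 813, 890 and 895 CPM in Ku70. The log2 changes were -4.68 (SE 0.54) and -4.51 (SE 0.54), or 25.7-fold and 22.7-fold lower. On WA, where Ku70 itself had less POX03641, they were smaller, at -3.01 (SE 0.50) at 12 h, -1.14 (SE 0.47) at 24 h and -1.71 (SE 0.48) at 36 h.

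POX06835 on AV had 250, 445 and 364 CPM in dClrB at 12 h, against 259, 341 and 308 CPM in Ku70. At 36 h it had 345, 583 and 499 CPM in dClrB, against 283, 356 and 353 CPM in Ku70. The ranges overlapped at both times, with log2 changes of 0.24 (SE 0.48) and 0.58 (SE 0.48). These SE ignore the pairing of libraries by quantification set, described below, which the order of the values follows. Paired so, dClrB was above Ku70 in every pair at 36 h but not at 12 h. On WA it had 8.83, 11.6 and 7.23 CPM in dClrB at 12 h, against 13.0, 13.8 and 9.91 CPM in Ku70. There dClrB was the lower in every pair, and the change was -0.44 (SE 0.49). With the counts of POX06834 and POX06835 summed that value was 0.39 (SE 0.43). The sum also holds the transcripts of POX06834 itself, and whether shared reads or POX06834 turned the sign was not tested. At 24 h on WA dClrB had 108, 521 and 340 CPM, against 166, 160 and 176 CPM in Ku70, lower in the first pair and higher in the others. The change there was 0.95 (SE 0.49), and 0.41 without dClrB library S. At 36 h on WA dClrB had 343, 351 and 389 CPM, all above the 190, 175 and 200 CPM of Ku70, and the change was 0.78 (SE 0.48).

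On the inducing carbon source at 24 h, POX06835 had 312, 985 and 447 CPM in dClrB, against a lowest of 139, a median of 260 and a highest of 446 CPM in the 24 Ku70 libraries. The log2 change was 1.00 (SE 0.26), 0.92 (SE 0.24) without Ku70 libraries 8, 9 and 10, and 0.55 without dClrB library S, the highest. POX03641 had 39.3, 68.4 and 62.5 CPM in dClrB, against a lowest of 82.9, a median of 1378 and a highest of 2735 CPM in Ku70. That is a change of -4.67 (SE 1.01), or -4.86 (SE 0.64) without libraries 8, 9 and 10.

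Most of the other cellulase genes were lower in dClrB on AV and on the inducing carbon source, and fewer on WA. Of the other 7 cellulase genes, 6 were called lower in dClrB at 12 h and 6 at 36 h on AV, with medians of -7.59 and -6.03, where 1.19% and 3.24% of all genes were called lower. On WA 0, 1 and 4 were called lower at 12, 24 and 36 h, where 0.209%, 0.233% and 1.13% of genes were called lower. On the inducing carbon source 5 were called lower, where 3.32% of genes were called lower. POX06835 was set apart from the list partly for its values after loss of clrB, so these counts are no independent contrast with it. Of the 4 xylanase genes 3 were called lower at each AV time and on the inducing carbon source, and 0, 0 and 1 on WA at 12, 24 and 36 h. POX02740 had the highest change of the 7 in all 6 settings, from -0.63 on the inducing carbon source to 0.96 on AV at 12 h.

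**Figure D2:**
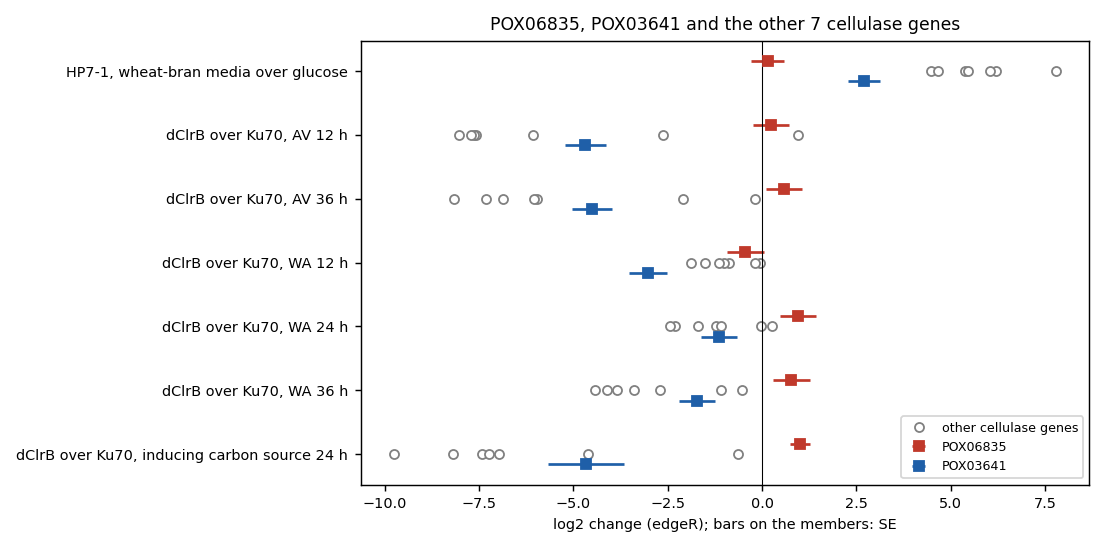
Log2 changes of POX06835 (red squares), POX03641 (blue squares) and the other 7 cellulase genes (open circles) in HP7-1 on wheat-bran media over glucose and in dClrB over Ku70, with SE bars on the pair. POX06835 lies near or right of 0 throughout, while POX03641 lies at -4.68 on AV at 12 h, among or left of the open circles in every dClrB comparison.

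All other comparisons were tested with edgeR's quasi-likelihood test, Benjamini-Hochberg adjusted over all genes of the fit, and a gene was called at an adjusted p under 0.05 and an absolute log2 change of at least 1. POX06835 was called in 15 of these 44 comparisons and POX03641 in 8. Over these comparisons the share of all genes called ran from 0.0614% to 35.9%. Many of them share groups, among them the WA groups at 12 h, so the counts are not of independent results.

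In Ku70, the test called POX06835 lower on WA at 12 h and POX03641 lower on WA at 36 h, each set against AV. At 12 h POX06835 had 13.0, 13.8 and 9.91 CPM on WA, against 259, 341 and 308 CPM on AV. It was 23.1-fold lower on WA (log2 change -4.53, SE 0.56, edgeR adjusted p = 4.46e-08), where 28.2% of genes were called. POX06834, which shares reads with it, averaged 13.8 CPM on WA and 38.8 CPM on AV at 12 h. The size of the fold can thus depend on how those reads were split. POX03641 at that time had 269, 535 and 417 CPM on WA, against 783, 1040 and 907 CPM on AV, and did not pass (-1.04, SE 0.47, edgeR adjusted p = 0.0705). At 36 h the calls were the other way round. POX06835 had 190, 175 and 200 CPM on WA, against 283, 356 and 353 CPM on AV, and was not called (-0.61, SE 0.48, edgeR adjusted p = 0.404). POX03641 had 136, 125 and 137 CPM on WA, against 813, 890 and 895 CPM on AV, and was 5.67-fold lower (-2.50, SE 0.49, edgeR adjusted p = 0.000122), where 19.5% of genes were called. Of the other 7 cellulase genes 6 were lower on WA at 12 h (median -6.86) and 5 at 36 h (median -3.52), against medians of -0.06 and -0.01 over all genes, of which 15.8% and 9.89% were called lower.

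Over time on WA, POX06835 rose and POX03641 fell in Ku70. POX06835 was at 13.0, 13.8 and 9.91 CPM at 12 h, 166, 160 and 176 CPM at 24 h and 190, 175 and 200 CPM at 36 h, with no overlap between 12 h and the later times. The change at 24 h over 12 h was 3.64 (SE 0.54, edgeR adjusted p = 2.76e-06), where 15.2% of genes were called, and at 36 h over 12 h it was 4.06 (SE 0.55, edgeR adjusted p = 2.92e-07), where 23.9% were called. At 12 h POX06834 averaged 13.8 CPM beside 12.3 CPM of POX06835, so how shared reads were split can bear on the size of both changes. POX06835 levels at 36 and 24 h did not pass the test against each other (0.42, SE 0.48, edgeR adjusted p = 0.756), where 5.9% of genes were called. POX03641 was at 203, 131 and 164 CPM at 24 h, and its change over 12 h was -1.46 (SE 0.47, edgeR adjusted p = 0.0179). Its change at 36 h over 12 h was -1.52 (SE 0.47, edgeR adjusted p = 0.0098). Both calls ended without library 30, the one labelled 13 h and the highest for POX03641 at 12 h (-1.19 and -1.26). The 24 h call also ended without library 33 or 34. On AV neither gene was called between 36 and 12 h (0.14, SE 0.48, for POX06835 and -0.06, SE 0.46, for POX03641), where 11.3% of genes were called.

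The difference between the media in that change over time was tested directly. The 36 over 12 h change of POX06835 was larger on WA than on AV by 3.92 on the log2 scale (SE 0.71, edgeR adjusted p = 4.48e-05), where 28% of genes were called. POX06834 averaged 13.8 and 15.5 CPM on WA at 12 and 36 h, and 38.8 and 62.4 CPM on AV. The size of this difference can thus depend on how shared reads were split. The same difference for POX03641 was -1.46 (SE 0.66, edgeR adjusted p = 0.0843) and was not called.

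In dClrB, POX06835 was called in the same directions by medium and time, and POX03641 was not called. At 12 h POX06835 was 37.2-fold lower on WA than on AV (-5.22, SE 0.58, edgeR adjusted p = 4e-09), where 32.1% of genes were called. As in Ku70, how reads shared with POX06834 were split can bear on that size. At 24 and 36 h the same comparison gave -0.48 (SE 0.48) and -0.41 (SE 0.48), neither called, where 20.9% and 20.6% of genes were called. On WA POX06835 was higher at 24 h than at 12 h by 5.04 (SE 0.57, edgeR adjusted p = 2.75e-08), where 14.2% of genes were called. At 36 h over 12 h it was higher by 5.28 (SE 0.58, edgeR adjusted p = 7.46e-09), where 20.7% were called. How shared reads were split can bear on the size of both changes. At 36 h over 24 h POX06835 gave 0.24 (SE 0.48) and POX03641 -0.64 (SE 0.47), neither called, where 7.79% were called. On AV POX06835 had 225, 688 and 512 CPM in dClrB at 24 h, and POX03641 had 46.2, 33.6 and 37.4 CPM. Neither gene was called between times on AV, where 5.04% of genes were called at 24 over 12 h, 4.46% at 36 over 24 h and 9.97% at 36 over 12 h. POX03641 in dClrB changed by 0.63 (SE 0.47), 1.04 (SE 0.47) and 0.29 (SE 0.47) on WA over AV at 12, 24 and 36 h, with edgeR adjusted p of 0.0832 at the lowest. Its levels were 51.4, 46.9 and 59.3 CPM on WA at 12 h, against 35.2, 36.6 and 34 CPM on AV, without overlap.

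**Figure D3:**
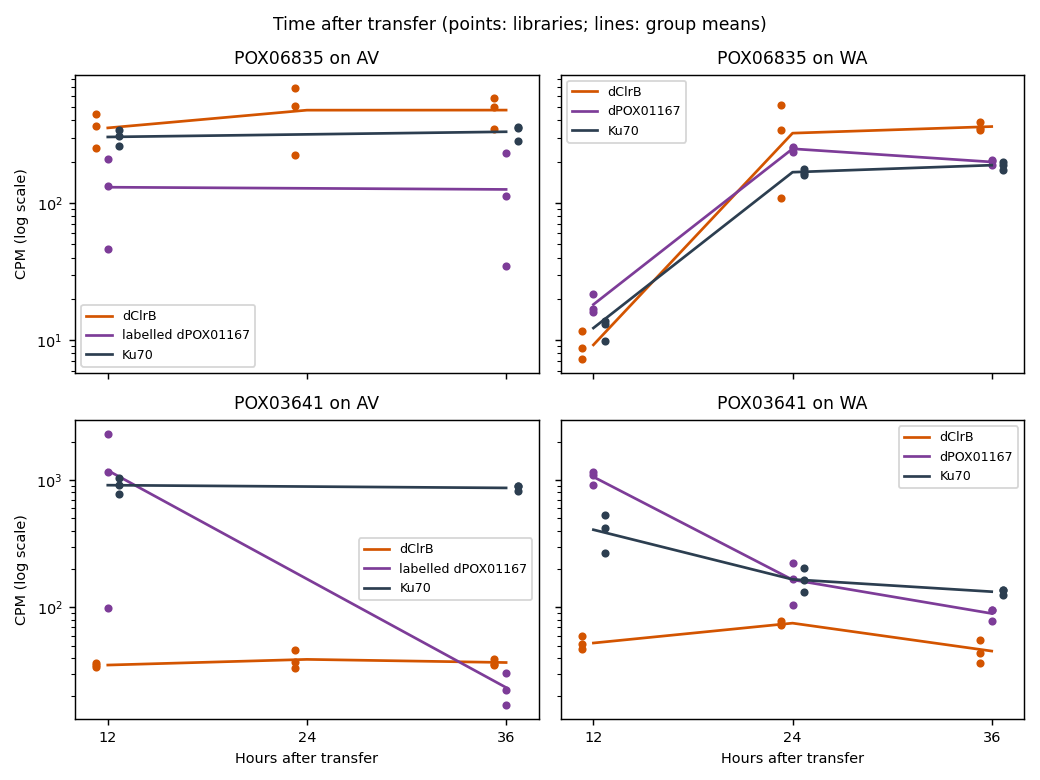
CPM on log axes against hours after transfer for POX06835 (top) and POX03641 (bottom) on AV (left) and WA (right), with points for libraries and lines through group means. On WA all 3 strains have at most 21.6 CPM of POX06835 at 12 h and at least 108 CPM at 24 and 36 h, while POX03641 in dClrB lies between 33.6 and 78.1 CPM in every panel.

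Deletion of POX01167 gave no called change of either gene on WA. POX06835 was at 16.8, 21.6 and 16.1 CPM at 12 h in dPOX01167, against 13.0, 13.8 and 9.91 CPM in Ku70 (0.54, SE 0.49). The groups did not overlap, and 0.184% of genes were called there. POX03641 was at 913, 1164 and 1095 CPM in dPOX01167, above the 269, 535 and 417 CPM of Ku70, but did not pass (1.32, SE 0.47, edgeR adjusted p = 0.382). At 24 and 36 h POX06835 changed by 0.56 (SE 0.48) and -0.05 (SE 0.48) and POX03641 by -0.03 (SE 0.46) and -0.70 (SE 0.47), none called, where 0.0614% and 0.319% of genes were called. Within dPOX01167 on WA both genes were called in the directions seen in Ku70. POX06835 rose by 3.66 at 24 h over 12 h (SE 0.54, edgeR adjusted p = 3.46e-06) and POX03641 fell by 2.81 (SE 0.50, edgeR adjusted p = 5.48e-05), where 12.1% of genes were called. At 36 h over 12 h the changes were 3.47 (SE 0.53, edgeR adjusted p = 5.11e-06) and -3.54 (SE 0.51, edgeR adjusted p = 2.03e-06), where 14% were called. At 36 h over 24 h they were -0.19 (SE 0.48) and -0.73 (SE 0.47), neither called, where 8.03% were called. As in Ku70, how reads shared with POX06834 were split can bear on the sizes of the POX06835 changes.

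The AV libraries labelled dPOX01167 spread widely. At 12 h POX06835 had 211, 46.2 and 134 CPM there, with library S the lowest, against 259, 341 and 308 CPM in Ku70 (-1.40, SE 0.49, edgeR adjusted p = 0.0275), where 16.8% of genes were called. That call ended without library S, T, Ku70 24 or Ku70 25, and with POX06834 summed in (-0.93, edgeR adjusted p = 0.101). POX03641 had 2309, 98.9 and 1153 CPM there and was not called (0.24, SE 0.46). At 36 h POX06835 had 230, 34.5 and 113 CPM, against 283, 356 and 353 CPM in Ku70 (-1.59, SE 0.49, edgeR adjusted p = 0.00911), where 24.6% of genes were called, and this call ended without library S (-1.09). POX03641 was 40.7-fold lower at 36 h (-5.35, SE 0.56, edgeR adjusted p = 1.82e-09), with at most 30.8 CPM in libraries labelled dPOX01167 against at least 813 CPM in Ku70. Since POX01167 RNA was present in 5 of these 6 libraries, no response to its deletion can be read from them.

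At 72 h without transfer, POX06835 showed its largest change among the tested comparisons. It had 14.6, 15.4 and 17.7 CPM in dPOX01167, against 1432, 1319 and 1473 CPM in dClrB. That is 99-fold lower in dPOX01167 (-6.63, SE 0.26, edgeR adjusted p = 0.000107), in a comparison where 35.9% of genes were called. No Ku70 group was grown this way, so whether dPOX01167 was low or dClrB high against their control cannot be told apart. POX03641 had 238, 43.2 and 227 CPM in dPOX01167, against 75.7, 81.4 and 83.5 CPM in dClrB, and was not called (0.86, SE 0.52, edgeR adjusted p = 0.221). Without dPOX01167 library S it was called higher (1.29). Among the other 7 cellulase genes POX02740 had the lowest change, at -6.14, and was the 1 called lower, where 17.7% of genes were called lower, with a median of 1.33 over the 7 and 0.07 over all genes. Within dClrB, POX06835 at 72 h without transfer against 24 h after transfer gave 1.23 (SE 0.39, edgeR adjusted p = 0.064), and POX03641 gave 0.42 (SE 0.20, edgeR adjusted p = 0.18), neither called, where 14.1% of genes were called.

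On the inducing carbon source at 24 h, no other mutant passed the test against all 24 Ku70 libraries. POX06835 had 129, 132 and 166 CPM in dPOX04420, against 139 to 446 CPM in Ku70 (-1.05, SE 0.29, edgeR adjusted p = 0.0536), where 1.62% of genes were called. It was called lower without Ku70 libraries 8, 9 and 10 (-1.13, SE 0.26, edgeR adjusted p = 0.0113). Against the shallow Ku70 libraries alone, without those 3, POX03641 was called lower too (-1.47, SE 0.20, edgeR adjusted p = 0.000249), at 1084, 657 and 939 CPM in dPOX04420. The number of genes called fell whichever mutant library was left out. Without 1 dPOX04420 library it was 0.0652 to 0.391 times as large, and without 1 OES1167 library 0.0556 times. It also depended on the Ku70 libraries. Over the 7 comparisons with them it was 1.1 to 7.35 times as large without libraries 8, 9 and 10. With Ku70 tables of the same kind besides, it was 1.07 to 24.5 times as large. OES1167 had 417, 446 and 453 CPM of POX06835 (0.74, SE 0.26, edgeR adjusted p = 0.217) and 1211, 1175 and 1017 CPM of POX03641 (-0.25, SE 0.72), where 0.211% of genes were called. In dPOX02968 the changes were 0.14 (SE 0.27) and -0.05 (SE 0.71), where 1.51% of genes were called. Without libraries 8, 9 and 10 the changes in OES1167 were 0.68 (SE 0.22) and -0.41 (SE 0.46), and those in dPOX02968 were 0.06 (SE 0.24) and -0.22 (SE 0.46), none called. Against the deep Ku70 libraries alone, the kind of table these mutants have, POX06835 gave 0.87 in OES1167 (SE 0.17, edgeR adjusted p = 0.0162) and 0.22 in dPOX02968 (SE 0.19), neither called at a change of at least 1. The POX03641 values then had the other sign, at 0.18 in OES1167 (SE 0.38) and 0.33 in dPOX02968 (SE 0.39), neither called.

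The Ku70 libraries on the inducing carbon source gave a further view of the pair beside the rest of the list. In libraries 8, 9 and 10, POX03641 was at 85.4, 92.0 and 82.9 CPM, against 535 to 2735 CPM in the other 21. POX06835 was at 148, 179 and 139 CPM there, against 164 to 446 CPM, so the ranges overlapped. The summed other 7 cellulase genes averaged 22 CPM in those 3 and 50390 CPM in the 21. POX06834 averaged 83.5 ± 8.99 CPM in the 3 and 105 ± 50.8 CPM in the 21. Among the other 21, POX03641 averaged 2120 ± 304 CPM in the 9 shallow libraries and 1038 ± 381 CPM in the 12 deep ones, and POX06835 averaged 312 ± 73.5 and 258 ± 74.2 CPM in the same libraries (SD). The dClrB and dPOX04420 libraries set against Ku70 here are shallow, and those of OES1167 and dPOX02968 are deep. What set these libraries apart was not tested.

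**Figure D4:**
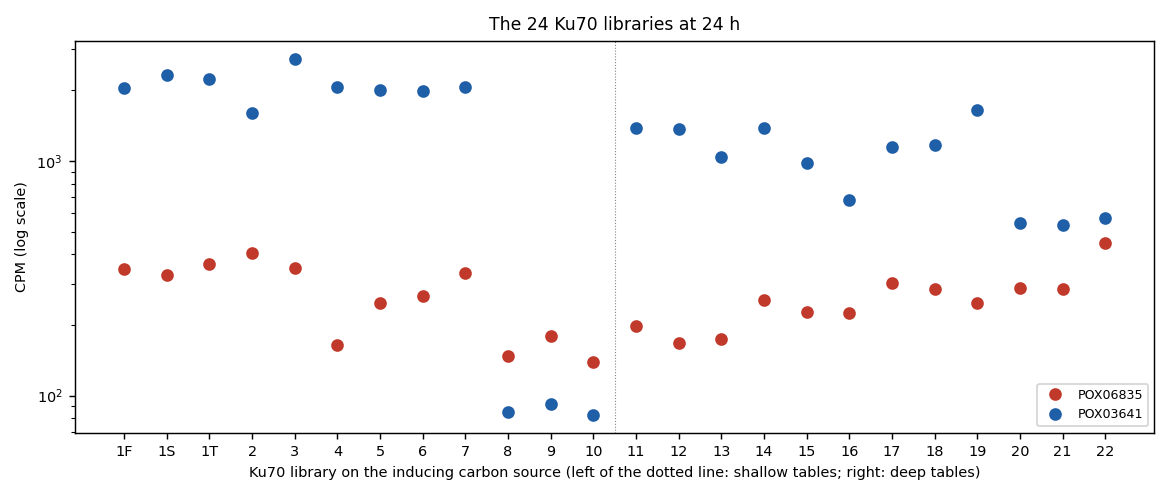
CPM on a log axis of POX06835 (red) and POX03641 (blue) in each of the 24 Ku70 libraries on the inducing carbon source at 24 h, shallow tables left of the dotted line and deep tables right of it. In libraries 8, 9 and 10 POX03641 lies between 82.9 and 92.0 CPM, below POX06835, and in the other 21 it lies above POX06835.

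With lipids, the pair parted again. In the dPOX07277 libraries POX06835 was higher than in Ku70 on all 3 lipids, and POX03641 was lower on 2. On arachidonic acid oil POX06835 had 690, 689 and 622 CPM in dPOX07277, against 306, 269 and 293 CPM in Ku70 (1.21, SE 0.30, edgeR adjusted p = 0.00652), where 14.4% of genes were called. On linolenic acid it had 741, 983 and 690 CPM in dPOX07277, against 182, 132 and 312 CPM in Ku70 (1.95, SE 0.31, edgeR adjusted p = 0.000181), where 14.8% were called. On oleic acid it had 935, 789.2 and 514 CPM in dPOX07277, against 290, 274 and 262 CPM in Ku70 (1.70, SE 0.31, edgeR adjusted p = 0.00029), where 32.9% were called. No dPOX07277 library fell within the Ku70 range on any lipid.

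POX03641 on arachidonic acid oil had 524, 591 and 508 CPM in dPOX07277, against 1457, 2237 and 3018 CPM in Ku70, and was 4.09-fold lower (-2.03, SE 0.43, edgeR adjusted p = 0.00225). On oleic acid it had 262, 1011 and 391.7 CPM in dPOX07277, against 1424, 1395 and 1174 CPM in Ku70 (-1.13, SE 0.42, edgeR adjusted p = 0.0291). That call ended without Ku70 library 44 or 45 or dPOX07277 library F or T. On linolenic acid it had 992, 1137 and 959 CPM in dPOX07277, within the 678, 508 and 1664 CPM of Ku70 (0.12, SE 0.42, edgeR adjusted p = 0.864). Whether the dPOX07277 change differed between lipids was tested as well, and none of the differences was called for either gene. The largest was that of POX03641 on arachidonic acid oil minus linolenic acid, at -2.15 (SE 0.60, edgeR adjusted p = 0.0991), where 1.16% of genes were called. The share was 17.9% for arachidonic acid oil minus oleic acid and 17.6% for linolenic minus oleic acid. The first of these differences was called without Ku70 library 43 (-2.85, edgeR adjusted p = 0.0115). That of linolenic minus oleic acid for POX03641, 1.25 (SE 0.59, edgeR adjusted p = 0.119), was called without Ku70 library 43 or dPOX07277 oleic acid library S (1.95 and 1.99). Of the other 7 cellulase genes, 3 were called lower in dPOX07277 on arachidonic acid oil, where 6.26% of genes were called lower. On linolenic acid 1 was called higher, where 9.34% were, and on oleic acid 3 were called lower, where 10.5% were. Between lipids within dPOX07277 neither gene was called, where 0.578% of genes were called for arachidonic acid oil over linolenic acid, 17.2% for arachidonic acid oil over oleic acid and 15% for linolenic over oleic acid.

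In Ku70 neither gene was called between a lipid and the inducing carbon source or between lipids. Against the 24 libraries on the inducing carbon source, POX06835 changed by 0.17 (SE 0.27) with arachidonic acid oil, -0.31 (SE 0.30) with linolenic acid and 0.15 (SE 0.26) with oleic acid, where 0.2%, 2.58% and 3.52% of genes were called. POX03641 changed by 0.75 (SE 0.66), -0.48 (SE 0.75) and 0.07 (SE 0.70). Without libraries 8, 9 and 10 these were 0.08, -0.38 and 0.06 for POX06835 and 0.56, -0.65 and -0.13 for POX03641, again none called. The lipid libraries are deep, and against the deep libraries alone POX06835 gave 0.28, -0.18 and 0.26. POX03641 then gave 1.16 (SE 0.37, edgeR adjusted p = 0.0659), -0.06 (SE 0.44) and 0.46 (SE 0.37), none called. Ku70 on arachidonic acid oil over linolenic acid gave 1.21 (SE 0.42, edgeR adjusted p = 0.138) for POX03641, and 1.92 (edgeR adjusted p = 0.0148) without Ku70 library 43, the highest on linolenic acid. Between lipids in Ku70 the shares of genes called were 2.22% for arachidonic acid oil over linolenic acid, 1.54% for arachidonic acid oil over oleic acid and 0.165% for linolenic over oleic acid.

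**Figure D5:**
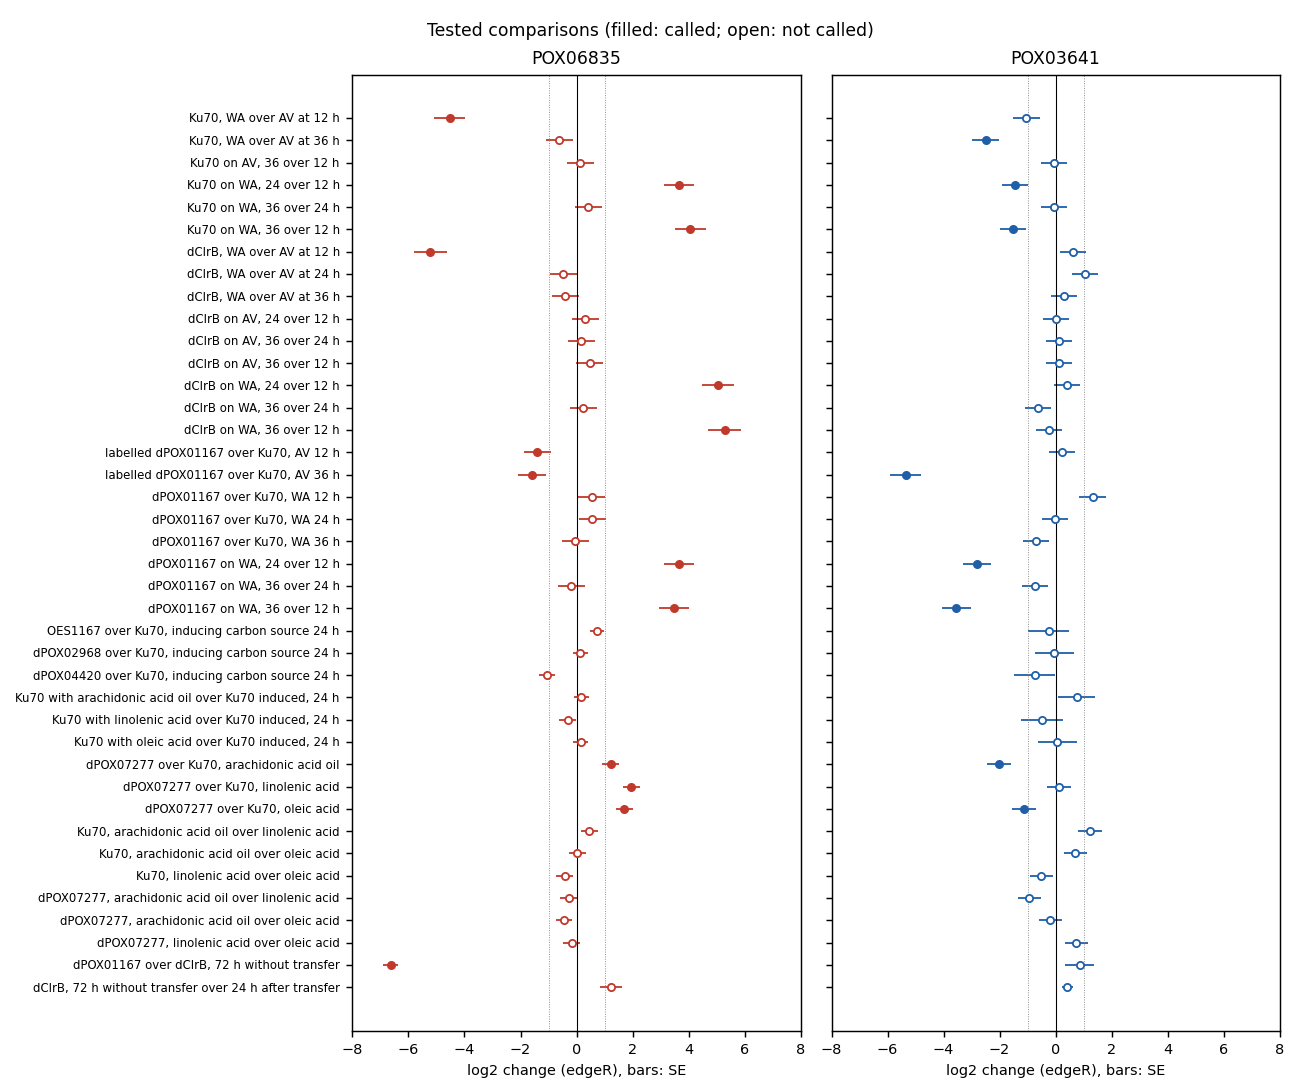
Log2 changes with SE bars of POX06835 (left panel) and POX03641 (right panel) in the tested comparisons of 2 groups, filled where called and open where not, with dotted lines at changes of 1 and -1. On WA at 24 or 36 h over 12 h, POX06835 lies right of 0 in all 3 strains, and POX03641 lies left of 0 in dPOX01167 and Ku70 and is not called in dClrB.

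As a description over the 33 group means of log2(CPM + 1), which share strains, media and kinds of table, the patterns of the pair had a Spearman rho of 0.05 with each other. Among 8599 genes those most like POX06835 were POX02763 (rho 0.86), POX04067 (0.84), POX03396 (0.83), POX06301 (0.82) and POX04158 (0.82). These means include the HP7-1, dClrB and Ku70 groups whose values chose the pair, so how like the pair is to the rest of the cellulase list is partly set by that choice. Of the other cellulase genes POX02740 was nearest to POX06835 at rank 703 (rho 0.56) and POX07535 was farthest at rank 5566 (rho -0.11). Those most like POX03641 were POX05570 (rho 0.92), POX06079 (0.89), POX03837 (0.88), POX03836 (0.87) and POX06783 (0.87), of which POX05570 is on the cellulase list and POX06783 on the xylanase list. The cellulase genes POX05571, POX04786, POX01166 and POX05587 ranked 7, 16, 22 and 23 with it, while POX02740 ranked 1773 (rho 0.36). Neighbouring IDs were not among those most alike. POX06834 had rho 0.37 with POX06835 (rank 2199), above all other cellulase genes but POX02740, the next being POX05587 (0.36). How shared reads were split can bear on that rho. POX03640 and POX03642 had 0.03 and 0.26 with POX03641.

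Levels of the genes most like POX06835 differed in size between the same groups. POX06301 averaged 29.6 CPM in dPOX01167 and 347 CPM in dClrB at 72 h, and in Ku70 at 12 h it averaged 20.4 CPM on WA against 103 CPM on AV. POX02763, at 40.8 CPM in dPOX01167 and 93.0 CPM in dClrB at 72 h, varied over a narrower range of 10.6 to 160 CPM over the libraries.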

How the data were processed

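The authors deposited, per the file headers, for each library and gene, an expected count, which is an estimate and can be fractional, and an FPKM. In 4 dPOX07277 tables the authors also deposited TPM, not used here, and gene lengths. The submitters' processing notes name RSEM 1.2.12, Bowtie2 2.1.0, DESeq2 and BWA 0.7.10-r789. Their roles, the genome build and the strand setting are not given in the sources used here. Of the 9863 IDs, 0 matched the 9964 RefSeq genes of the reference table, so no sequence, product name or position is given. IDs that do not start with POX (29) held at most 0.067% of a library's counts.

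From these files, CPM of the library total was computed. Expected counts were rounded, a shift of up to 0.00861% of the counts in a library, and tested with the quasi-likelihood test of edgeR 4.0.16 (R 4.3.3) with TMM scaling. The filter kept genes whose mean over a fit's libraries reached 1 CPM. Two-sided p-values were Benjamini-Hochberg adjusted over all genes kept. The 48 time-course libraries shared 1 fit, as did the 18 lipid libraries, and each other comparison used its own groups. The procedure was tried on simulated data with independent libraries and 1 fixed spread. That setting lacks the pairing of libraries described below, so it does not show how the test behaves under it. DESeq2 1.42.0, limma 3.58.1 on log2(FPKM + 1), other scaling and filters, and leaving out libraries were alternatives.

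The 2 genes, the gene lists and the comparisons were chosen with earlier results of these data known. Beside the pair, the genes named are the 5 most alike by Spearman correlation with each, the other 7 cellulase and 4 xylanase genes, and the IDs next to each in the numbering. Chi-square per degree of freedom was at least 1.92 in the 363 pairs of libraries of 1 group, so none counted as 1 library deposited again. This cannot show whether 2 libraries come from 1 culture. The lowest value was that of Ku70 libraries 20 and 21 on the inducing carbon source. With the remaining Ku70 libraries there, library 20 had 203 to 476. Libraries 8 and 9 had 5.69, against 289 for 8 and 11. The tests still took each of the 24 as 1 independent library.

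FPKM per count parts the time-course libraries into 3 quantification sets. Each group has 1 library in each set, and lettered libraries fall into sets by their letter. Same-set libraries of compared groups deviated together (correlations of at least 0.564, each library best with its own set), so the sets pair the libraries. By the same measure the letters also pair the linolenic acid and arachidonic acid oil libraries of dPOX07277 (0.142 to 0.378). This pairing comes from the values and the letters, not from a stated batch.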

Additional observations from a re-analysis of the deposited data

Results flagged for a closer look

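The change of POX06835 over time in Ku70 differed between the media, by a test of the difference itself. Its 36 over 12 h change was larger on WA than on AV by 3.92 on the log2 scale (SE 0.71, edgeR adjusted p = 4.48e-05). It was 4.06 on WA, with all 3 libraries at 36 h above all 3 at 12 h, and 0.14 on AV. Leaving out each library in turn gave 3.72 to 4.08, a range that does not cover how reads shared with POX06834 were split. POX06834, which shares reads with POX06835, averaged 13.8 CPM in Ku70 on WA at 12 h, beside 12.3 CPM of POX06835. On WA at 36 h it averaged 15.5 CPM beside 189 CPM of POX06835. On AV it averaged 38.8 CPM beside 303 CPM at 12 h, and 62.4 CPM beside 331 CPM at 36 h. The size of the difference can thus depend on how those reads were split.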

How the results depend on the processing

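The log2 changes of the pair in the 44 tested comparisons were recomputed under each alternative, 1102 values in all. Of these 1066 kept their side of the threshold, 18 calls were lost, 18 were gained and 0 called changes turned round. Among the 1066 the sign of an uncalled change turned in 43, the largest at 0.83 on the log2 scale with adjusted p of 0.149 at the lowest. The cause of each shift below was not tested. With limma, POX03641 on WA over AV at 12 h in Ku70 was called (-1.21, adjusted p = 0.0495) and on WA at 24 over 12 h was not (-1.25, adjusted p = 0.0607). With the groups of a comparison alone, POX03641 was called in the WA minus AV difference in Ku70 (-1.50), in dClrB on WA over AV at 24 h (1.01) and in the difference of arachidonic acid oil minus linolenic acid (-2.16), and not in dPOX07277 on oleic acid (-1.14). In the libraries labelled dPOX01167, POX06835 was then not called at 12 h (-1.35) or 36 h (-1.51), nor at 12 h with POX06834 summed in (-0.93). With DESeq2, POX06835 was called in dPOX04420 (-1.05) and in dClrB at 72 over 24 h (1.21), and POX03641 in that lipid difference (-2.15). Without Ku70 libraries 8, 9 and 10, POX06835 was called in dPOX04420 (-1.13), and with Ku70 tables of the same kind besides, both were (-1.36 and -1.47). The POX06835 value in dClrB over Ku70 was then 0.69 on the inducing carbon source, and 0.39 on WA at 12 h with POX06834 summed in. The alternatives on libraries 8, 9 and 10 and on the sum were chosen after seeing the data.

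Leaving out 1 library at a time gave, for POX03641 in Ku70 on WA, -1.72 to -1.19 at 24 over 12 h, -1.79 to -1.26 at 36 over 12 h and -1.73 to -1.20 for the difference from AV, called without library 29. It gave -1.88 to -0.93 for POX03641 in dPOX07277 on oleic acid, -2.85 to -1.85 for the difference of arachidonic acid oil minus linolenic acid, 0.95 to 1.99 for that of linolenic minus oleic acid, 0.91 to 1.92 for Ku70 on arachidonic acid oil over linolenic acid, 0.52 to 1.46 for dPOX07277 on linolenic over oleic acid, called without oleic acid library S, and 0.55 to 1.29 for dPOX01167 over dClrB at 72 h. For POX06835 it gave -2.06 to -0.94 and -2.25 to -1.09 in the libraries labelled dPOX01167 at 12 and 36 h, 0.99 to 1.72 in dClrB at 72 over 24 h, called without 24 h library S, and 0.41 to 1.38 on WA at 24 h and 0.55 to 1.23 on the inducing carbon source in dClrB over Ku70. The replicate block, on the quantification sets or letters, changed 0 of 58 calls of the pair, with POX06835 at 0.23 in dClrB over Ku70 on AV at 12 h. Over the 33 group means the rho of 0.05 between the 2 genes lay between -0.04 and 0.08 in the other measures. TMM scaling moved 14 of 66 group levels by over 1 SD or, in groups of 1 library, outside a binomial interval of the count. The number of genes called over all genes, behind the percentages given, moved by over 1.5 times in 17 of 51 comparisons with DESeq2, in 18 of 41 with the groups alone, in 10 of 34 with the block, in 6 of 51 with limma and in 6 of 7 without libraries 8, 9 and 10. Leaving out 1 library gave 0.0556 times the number in OES1167, 0.0652 to 0.391 times in dPOX04420, 0.209 to 0.364 times in dPOX02968, 0.263 to 1.33 times with dClrB libraries on the inducing carbon source, 0.13 to 2.1 times with lipid libraries and 0.385 to 2.2 times in the time course.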
